A study of Mus musculus with 6 samples.

Results

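Clcn1, Scn4a, Kcnj2, Kcnj11, Abcc9, Atp1b1, Atp1b2 and Fxyd1 encode ion channels and sodium pump subunits of the muscle membrane. They were followed on 6 arrays, 3 of female C57BL/6 mice given an estradiol pellet after ovariectomy (OVX + E2) and 3 of mice given a placebo pellet (OVX). Members were taken as every probe set, a group of short probes for 1 transcript, whose platform annotation gives one of these symbols and no other. This gave 15 of 45101 probe sets, for 7 of the 8 genes. There were 5 for Atp1b1, 3 for Abcc9, 2 each for Kcnj11 and Atp1b2, and 1 each for Clcn1, Kcnj2 and Fxyd1. Scn4a, the voltage-gated sodium channel that carries the action potential of the skeletal fibre, had 0 probe sets under this rule and was not analysed here. Mice of both groups had their ovaries removed at the age of 4 months, with no engineered allele named, and the E2 pellet held 0.18 mg for release over 60 days. No ovary-intact group is among these arrays. The sources do not say whether the 3 arrays of a group come from 3 animals, so a p-value here covers array-to-array spread that may be technical.

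The resting skeletal fibre is held near its potassium potential by inward-rectifier channels and, more than in most cells, by a large chloride conductance. Each action potential lets sodium in and potassium out, and the sodium pump, built of a catalytic alpha subunit, a beta subunit and a small FXYD regulator, restores both. ATP-sensitive potassium channels open when energy runs low and limit firing in tired muscle.

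The sample labels name left ventricle, and the study's methods name soleus, a slow calf muscle. The marker genes were those of skeletal muscle: 10 of 12 skeletal muscle genes ranked among the brightest 5% of probe sets and 0 of 11 heart genes did. Array medians lay between 6.92 and 6.93 in OVX + E2 and between 6.90 and 6.92 in OVX, on a log2 scale in arbitrary units (a.u.) on which dim differences are compressed. The standard deviation of all values on an array lay between 1.136 and 1.164 in OVX + E2 and between 1.198 and 1.219 in OVX, without overlap. OVX + E2 replicate 3 and OVX replicate 3 stood apart from the other arrays. On the first principal component of all probe sets (48.4% of the variance) they lay at −24.8 and 25.6, with the other arrays between −3.32 and 4.66. Of 10 fast-fibre genes, such as Myh4 and Actn3, the mean deviation from the 6-array mean was 0.33, −0.16 and −1.41 on OVX + E2 replicates 1, 2 and 3, and 0.17, 0.27 and 0.80 on OVX replicates 1, 2 and 3. That mean rests mostly on Myh4, Actn3, Mybpc2 and Pvalb, with log2 differences (OVX + E2 minus OVX) of −2.15, −1.57, −1.67 and −1.51. The rest of the list, such as Myh1 and Mylpf, differed by between −0.29 and −0.15. The 10 slow-fibre genes ran between −0.04 and 0.05 in OVX + E2 and between −0.29 and 0.13 in OVX. The 2 arrays are therefore left out in turn and together beside the results they touch.

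The promoters are shown for Clcn1, Abcc9 and Fxyd1, the 3 genes with a probe set in which every OVX + E2 array lay below every OVX array. RefSeq windows on GRCm38.p6 matched 6 of the 8 genes. Each line gives the 250 bases before the start site, 5′ to 3′ on the strand of the gene, with motif matches in capitals.
Clcn1, chr6:42286435-42286684, + strand: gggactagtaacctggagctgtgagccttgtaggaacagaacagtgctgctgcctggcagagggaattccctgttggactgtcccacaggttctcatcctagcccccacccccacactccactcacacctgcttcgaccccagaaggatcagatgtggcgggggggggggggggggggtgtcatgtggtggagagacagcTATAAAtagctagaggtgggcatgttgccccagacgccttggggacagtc
Abcc9, chr6:142702275-142702524, - strand: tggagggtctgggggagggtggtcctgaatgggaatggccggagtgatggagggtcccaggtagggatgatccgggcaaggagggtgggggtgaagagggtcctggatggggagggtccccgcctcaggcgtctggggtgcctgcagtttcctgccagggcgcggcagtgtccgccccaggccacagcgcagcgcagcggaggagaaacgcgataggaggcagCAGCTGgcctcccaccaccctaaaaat
Fxyd1, chr7:31054854-31055103, - strand: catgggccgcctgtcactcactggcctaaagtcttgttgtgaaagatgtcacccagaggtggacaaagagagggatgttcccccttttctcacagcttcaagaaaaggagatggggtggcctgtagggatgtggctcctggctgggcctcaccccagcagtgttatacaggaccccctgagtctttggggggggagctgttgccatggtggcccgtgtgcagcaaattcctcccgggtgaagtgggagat

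GGTCA, the repeated unit of the estrogen response element, was searched on both strands and had 0 matches in these 3 windows, where 35.2% of 32851 such windows hold it. The motifs do not overlap one another in these windows. CAGCTG, a form of the E-box that myogenic factors can bind, lay in the Abcc9 window 27 bases before the start and is in 13.0% of all windows. The Clcn1 window held TATAAA, the core of the TATA box, from 50 bases before the start, and 12.4% of all windows hold it on either strand. TATAAA was searched after the windows had been read. Of the other 3 member windows, that of Scn4a held 2 GGTCA matches on the opposite strand, 142 and 84 bases before the start, and that of Kcnj2 held CAGCTG 206 bases before it. A match is a description of the letters and does not show binding.

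The comparison asks how an E2 pellet bears on these transcripts in mice without ovaries. In the measured values 13 of 15 member probe sets were lower in OVX + E2, where 52.3% of all probe sets were. The median log2 difference (OVX + E2 minus OVX) was −0.14 over the members and −0.0049 over all probe sets. The study's threshold was a limma p, before adjustment, of at most 0.001. In the fit made here 0.213% of all probe sets (96) passed it, 0.197% lower and 0.0155% higher in OVX + E2, and 0 of 15 members did. The study itself reported a larger count at this threshold, also mostly lower with E2, and the reason was not tested. At an unadjusted p below 0.05 there were 4 of 15 members, against 13.8% of all probe sets. All 4 were lower, against 9.43%, and 0 were higher, against 4.35%. Those 4 belong to Clcn1, Abcc9 and Fxyd1. In the same 4, all OVX + E2 values lay below all OVX values, against 11.4% of all probe sets, and in 1, of Atp1b1, they lay above, against 9.76%. With Benjamini-Hochberg adjustment in limma 0 of 45101 probe sets (0%) passed at 0.05, and the 4 had adjusted p-values between 0.308 and 0.32. With 3 arrays a group an exact permutation test cannot give a two-sided p below 0.1.

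**Figure D1:**
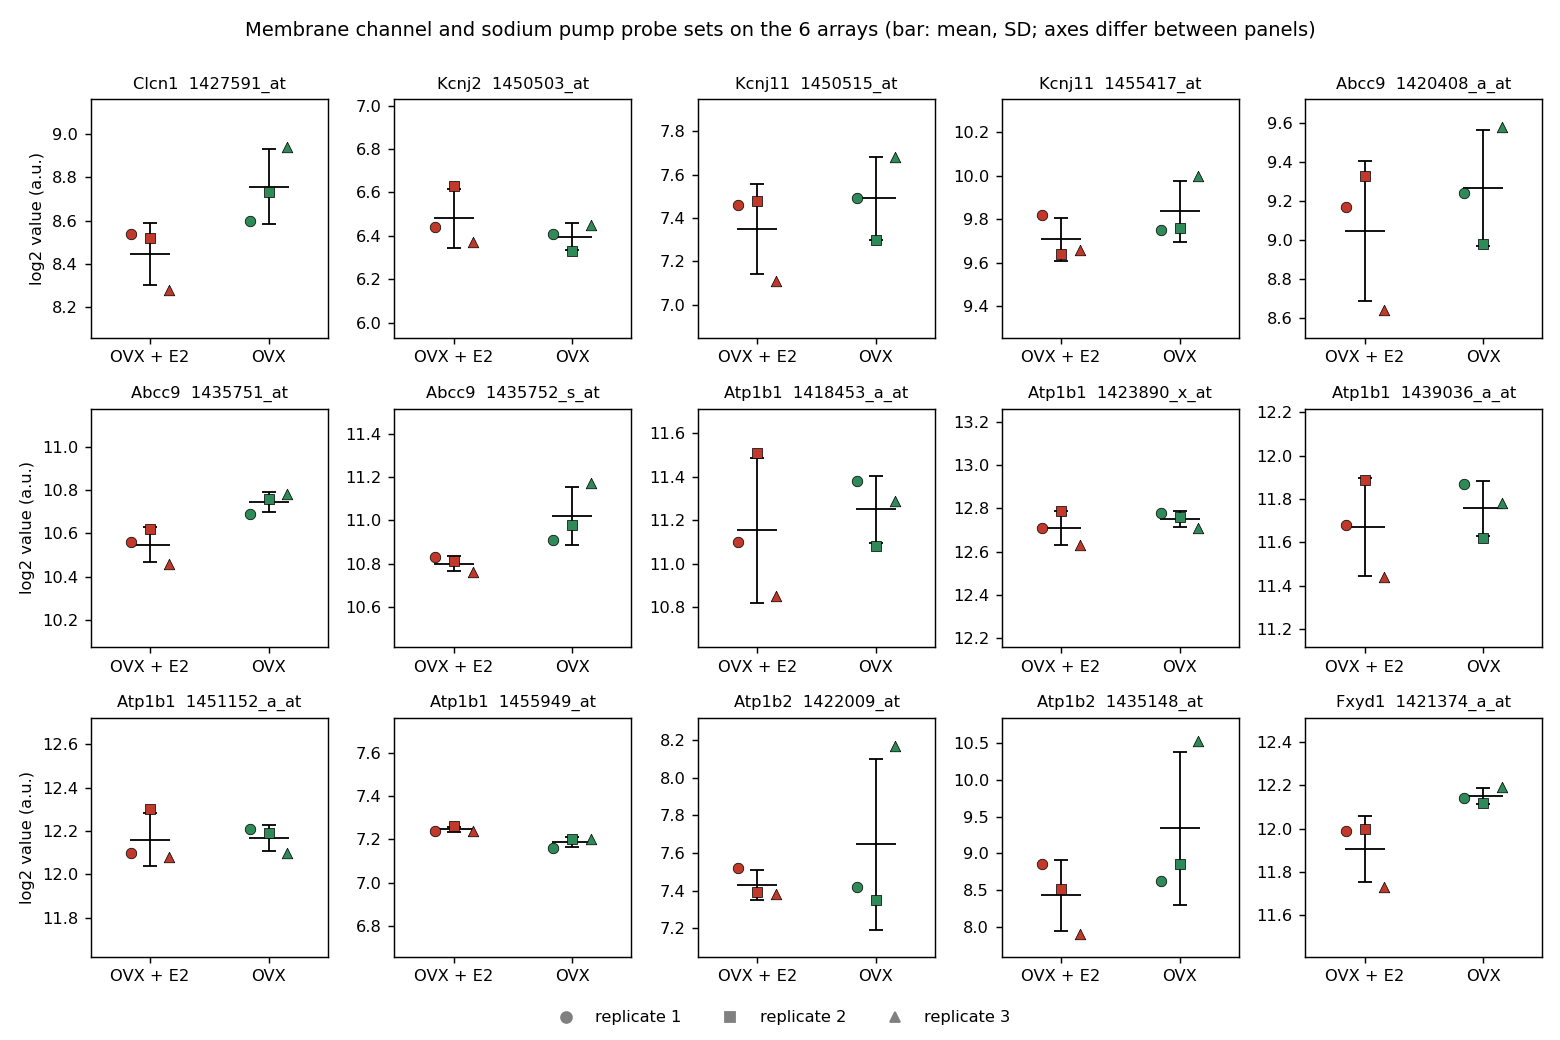
Log2 expression value (vertical axis, arbitrary units, a scale of its own in each panel) of the 15 member probe sets in OVX + E2 (left, red) and OVX (right, green), with the symbol marking the replicate number, the long bar the mean and the whiskers the SD. In Clcn1, 2 probe sets of Abcc9 and Fxyd1 all red points lie below all green points, and in the others except Atp1b1 1455949_at the groups overlap.

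Most members are bright, and bright probe sets as a whole were lower in OVX + E2. Above a mean log2 value of 8 there were 11 member probe sets, and 11 of 11 were below 0, against 90.4% of the 8643 probe sets of that brightness. Of the 11, 4 were lower at an unadjusted p below 0.05, against 32.8%, and the same 4 did not overlap between the groups, against 33.6%. The median difference was −0.20, against −0.13. Set beside the median of all probe sets within the same range of 1 log2 unit of brightness, 8 of 15 member differences were the lower. When cyclic loess was applied to the values as deposited, the median of the 11 was −0.049, against −0.011 for all bright probe sets, 6 of 11 were below 0, against 54.3%, and 0 of 15 members kept an unadjusted p below 0.05. Over all probe sets 89 of the 96 past 0.001 were lower as deposited, and 14 of 31 were lower after cyclic loess.

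**Figure D2:**
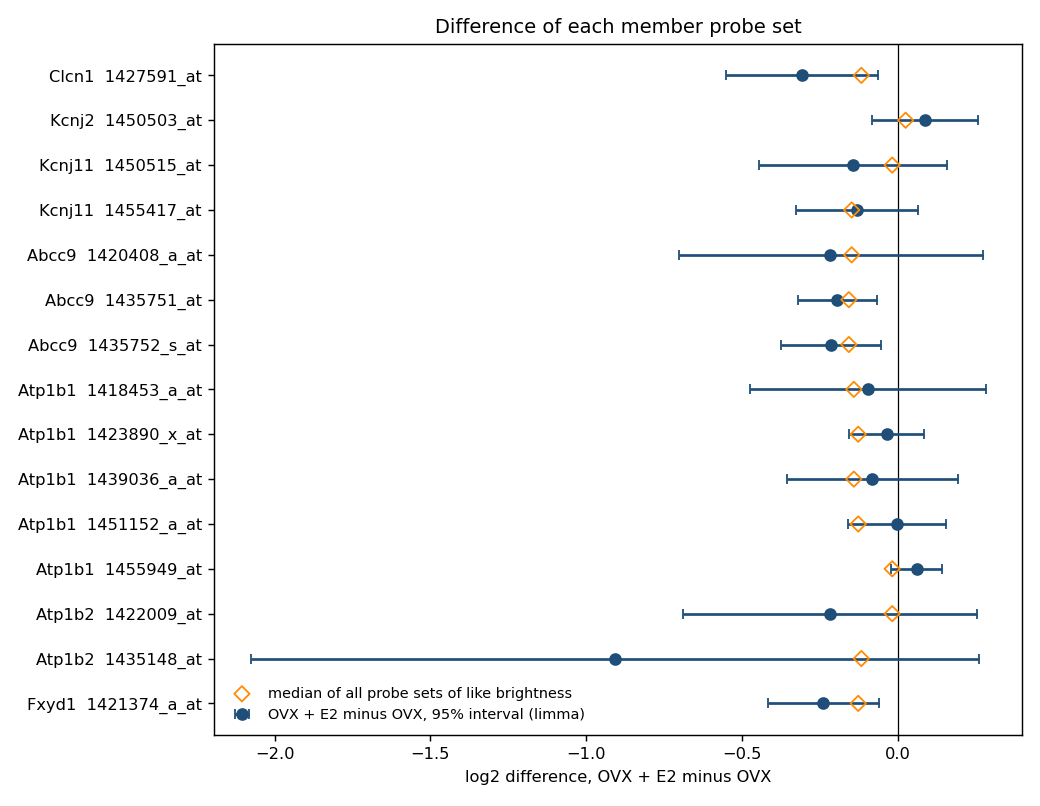
Log2 difference, OVX + E2 minus OVX (horizontal axis), of each member probe set with its 95% interval from limma, and, as an open diamond, the median difference of all probe sets in the same range of 1 log2 unit of brightness. The intervals of Clcn1, Abcc9 1435751_at, Abcc9 1435752_s_at and Fxyd1 lie below 0, and each of them covers its diamond.

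Clcn1 encodes ClC-1, the chloride channel that provides most of the resting conductance of the skeletal fibre, and its loss causes myotonia in mice. Its probe set (1427591_at) measured 8.54, 8.52 and 8.28 on OVX + E2 replicates 1, 2 and 3 and 8.60, 8.73 and 8.94 on OVX replicates 1, 2 and 3. The groups did not overlap, but the lowest value was on OVX + E2 replicate 3 and the highest on OVX replicate 3, the arrays that stood apart in fast-fibre genes. The difference was −0.31 (standard error 0.10, 95% interval −0.55 to −0.065), a fold of 0.808, past an unadjusted 0.05 but with a limma adjusted p of 0.32. Probe sets of like brightness had a median of −0.12. Without both arrays numbered 3 the difference was −0.13, without OVX + E2 replicate 3 alone −0.23, and after cyclic loess −0.19, none of them past an unadjusted 0.05 in limma. Without OVX replicate 3 alone the difference was −0.22, past an unadjusted 0.05. The part of fast-fibre content in it was not tested. In whole muscle, fewer fibres of a type and less RNA per fibre cannot be told apart.

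Kcnj2 encodes Kir2.1, an inward rectifier that sets the resting potential. Its probe set (1450503_at) was dim, with 6.44, 6.63 and 6.37 in OVX + E2 and 6.41, 6.33 and 6.45 in OVX, all below the array medians. The groups overlapped, and the difference was 0.09 (95% interval −0.085 to 0.26, limma adjusted p = 0.601), which includes 0 and does not show equal levels.

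Kcnj11 and Abcc9 encode the 2 parts of the ATP-sensitive potassium channel of muscle, the pore Kir6.2 and the regulatory sulfonylurea receptor SUR2. Both probe sets of Kcnj11 overlapped between the groups. The brighter, 1455417_at, measured 9.82, 9.64 and 9.66 in OVX + E2 and 9.75, 9.76 and 10.00 in OVX, with a difference of −0.13 (95% interval −0.33 to 0.065, limma adjusted p = 0.495). The dimmer, 1450515_at, measured 7.46, 7.48 and 7.11 in OVX + E2 and 7.49, 7.30 and 7.68 in OVX (difference −0.14, limma adjusted p = 0.617), and it was 0.07 without both arrays numbered 3. The direction of the brighter one turned to 0.02 after cyclic loess and to 0.04 after quantile normalization, so no direction is given for Kcnj11.

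Abcc9 had 2 probe sets without overlap and 1 with a wide spread. Probe set 1435751_at measured 10.56, 10.62 and 10.46 in OVX + E2 and 10.69, 10.76 and 10.78 in OVX. Probe set 1435752_s_at, whose suffix marks probes shared by more than 1 transcript, measured 10.83, 10.81 and 10.76 in OVX + E2 and 10.91, 10.98 and 11.17 in OVX. In both, every OVX + E2 array was the lower, by a gap smaller than the range of the wider group. The differences were −0.20 (standard error 0.053, limma adjusted p = 0.308) and −0.22 (standard error 0.068, limma adjusted p = 0.314), and the median of all probe sets of like brightness was −0.16. Probe set 1420408_a_at measured 9.17, 9.33 and 8.64 in OVX + E2 and 9.24, 8.98 and 9.58 in OVX, so the groups overlapped (difference −0.22, standard error 0.21, limma adjusted p = 0.645). Without both arrays numbered 3 the first 2 were at −0.13 and −0.12, no longer past an unadjusted 0.05, and the other turned to 0.15. After cyclic loess the first 2 were at −0.049 and −0.07.

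Abcc9 is also a gene of smooth muscle and pericytes, where it pairs with Kcnj8. Of 8 marker genes of those cells, such as Acta2 and Rgs5, the mean deviation was 0.03, −0.03 and −0.21 in OVX + E2 and 0.18, 0.18 and −0.14 in OVX, and 0 of 8 lay below the median of all probe sets. The summed log2 level of the 8 ran from 69.4 to 71.3 in OVX + E2 and from 70.0 to 72.5 in OVX. The mean log2 difference of the 8 was −0.14. OVX replicate 3 was the lowest OVX array for these markers and the highest of all arrays for all 3 probe sets of Abcc9. OVX + E2 replicate 3 was the lowest of all arrays both for these markers and for all 3 probe sets of Abcc9. Kcnj8 (1418142_at) measured 8.09, 8.27 and 8.05 in OVX + E2 and 8.21, 8.57 and 8.23 in OVX. Its groups overlapped (difference −0.20, limma adjusted p = 0.427). The part of vessel cells in the Abcc9 values was not tested.

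Atp1b1 and Atp1b2 encode the beta subunits of the sodium pump, which carry the catalytic subunit to the membrane and tune its affinity for potassium. Beta 1 is known as the main form of slow oxidative fibres and beta 2 as that of fast glycolytic fibres in rat. On these arrays the measured differences of Atp1b1 were within 0.10, and Atp1b2 varied more than any other member.

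The 2 brightest probe sets of Atp1b1 stayed within narrow bounds. Probe set 1423890_x_at, whose suffix marks probes that can match other transcripts, measured 12.71, 12.79 and 12.63 in OVX + E2 and 12.78, 12.76 and 12.71 in OVX, and probe set 1451152_a_at measured 12.10, 12.30 and 12.08 in OVX + E2 and 12.21, 12.19 and 12.10 in OVX. The groups overlapped in both. The differences were −0.04 (95% interval −0.16 to 0.083) and −0.0033 (95% interval −0.16 to 0.15), and both intervals include 0. Probe sets 1418453_a_at and 1439036_a_at had wider spreads and also overlapped, with differences of −0.10 (limma adjusted p = 0.798) and −0.08 (limma adjusted p = 0.757). Without OVX + E2 replicate 2 the first was −0.27, past an unadjusted 0.05 in limma. In OVX + E2 both were highest on replicate 2 and lowest on replicate 3, at 11.51 and 10.85 for 1418453_a_at and at 11.89 and 11.44 for 1439036_a_at. The dim probe set 1455949_at measured 7.24, 7.26 and 7.24 in OVX + E2 and 7.16, 7.20 and 7.20 in OVX, with no overlap and a difference of 0.06 (standard error 0.035, limma adjusted p = 0.47). The first 4 turned above 0 under both cyclic loess and quantile normalization, and no direction is given for Atp1b1.

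Atp1b2 had the largest measured difference of the members and the least certain. Probe set 1435148_at measured 8.86, 8.52 and 7.91 in OVX + E2 and 8.63, 8.86 and 10.53 in OVX. Replicates 1 and 2 of the 2 groups interleaved, and the difference rested on OVX + E2 replicate 3, the lowest array, and OVX replicate 3, the highest. The values spanned 2.62 over the 6 arrays, 1.90 of it within OVX. The difference was −0.91 (standard error 0.50, 95% interval −2.07 to 0.26) with a limma adjusted p of 0.437. Leaving out OVX + E2 replicate 3 gave −0.65, leaving out OVX replicate 3 gave −0.31, and leaving out both gave −0.053. Leaving out OVX replicate 1 gave −1.26, past an unadjusted 0.05 in limma, and leaving out OVX replicate 2 or OVX + E2 replicate 1 or 2 gave −1.15, −1.12 and −0.95, none of them past it. The second probe set, 1422009_at, measured 7.52, 7.39 and 7.38 in OVX + E2 and 7.42, 7.35 and 8.17 in OVX. It too was highest on OVX replicate 3, and its difference of −0.22 (limma adjusted p = 0.633) was 0.04 without that array.

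Among probe sets brighter than the median, the genes with the profile most like that of Atp1b2 1435148_at were found by the root mean square difference of the centred log2 values over the 6 arrays. They were Ddit4l (0.14), an inhibitor of mTOR signalling, Gpd1 (0.15), the cytosolic glycerol-3-phosphate dehydrogenase, Gpd2 (0.15), its mitochondrial counterpart, Prkab2 (0.16), a subunit of AMP-activated kinase, and Gpt2 (0.16), an alanine aminotransferase. For scale, Atp1b2 itself deviated from its mean by 0.80 on the same measure. Ddit4l measured 8.75, 8.53 and 7.98 in OVX + E2 and 8.79, 8.96 and 10.27 in OVX, with the same lowest and highest arrays. Myh4, a fast myosin, measured 13.35, 12.60 and 7.78 in OVX + E2 and 13.07, 13.23 and 13.90 in OVX, and Actn3, the alpha-actinin of fast fibres, 12.65, 11.67 and 9.33 in OVX + E2 and 12.23, 12.57 and 13.57 in OVX. Other fast-fibre genes spanned less, such as Atp2a1, at 13.75, 13.56 and 13.32 in OVX + E2 and 13.72, 13.68 and 13.88 in OVX. The summed log2 level of the 10 fast-fibre genes ran from 114.0 to 131.4 in OVX + E2 and from 129.8 to 136.1 in OVX. The part of fast-fibre content in the Atp1b2 values was not tested. Leaving out the arrays of lowest and highest fast-fibre level cannot test it, because Atp1b2 1435148_at was also lowest and highest there.

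**Figure D3:**
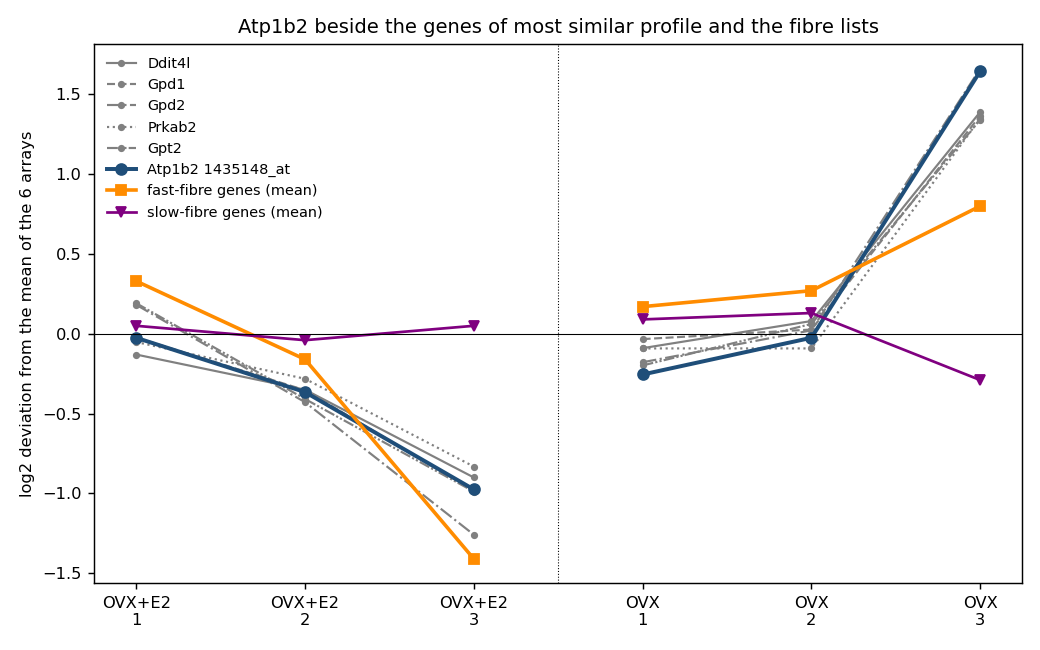
Deviation of the log2 value from the mean of the 6 arrays (vertical axis) on OVX + E2 replicates 1, 2 and 3 (left) and OVX replicates 1, 2 and 3 (right) for Atp1b2 1435148_at (blue), the 5 genes of most similar profile (grey) and the means of 10 fast-fibre (orange) and 10 slow-fibre genes (purple). Atp1b2 and the fast-fibre genes are lowest on OVX + E2 replicate 3 and highest on OVX replicate 3.

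Atp1b2 is also known from glia. The 4 measured nerve and Schwann cell genes, such as Mbp and Pmp22, had mean deviations of −0.00, 0.04 and −0.15 in OVX + E2. In OVX these were 0.31, 0.19 and −0.38. Within OVX the markers were lowest on replicate 3, where Atp1b2 was highest. Within OVX + E2 they were lowest on replicate 3, where Atp1b2 was lowest too. The part of nerve and Schwann cells in the Atp1b2 values was not tested.

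Fxyd1 encodes phospholemman, the small membrane protein that slows the sodium pump of muscle until it is phosphorylated. Its probe set (1421374_a_at) measured 11.99, 12.00 and 11.73 in OVX + E2 and 12.14, 12.12 and 12.19 in OVX. The groups did not overlap, and the 3 OVX arrays lay within 0.07 of each other. The difference was −0.24 (standard error 0.075, 95% interval −0.42 to −0.062), a fold of 0.847, past an unadjusted 0.05 but with a limma adjusted p of 0.314. Fxyd1 was the only member probe set with an unadjusted limma p below 0.05 when both arrays numbered 3 were left out (difference −0.13), where 7.54% of all probe sets were lower at that p. Bright probe sets had a median of −0.099 in the same fit, and the Fxyd1 difference was −0.10 after cyclic loess, not past an unadjusted 0.05.

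**Figure D4:**
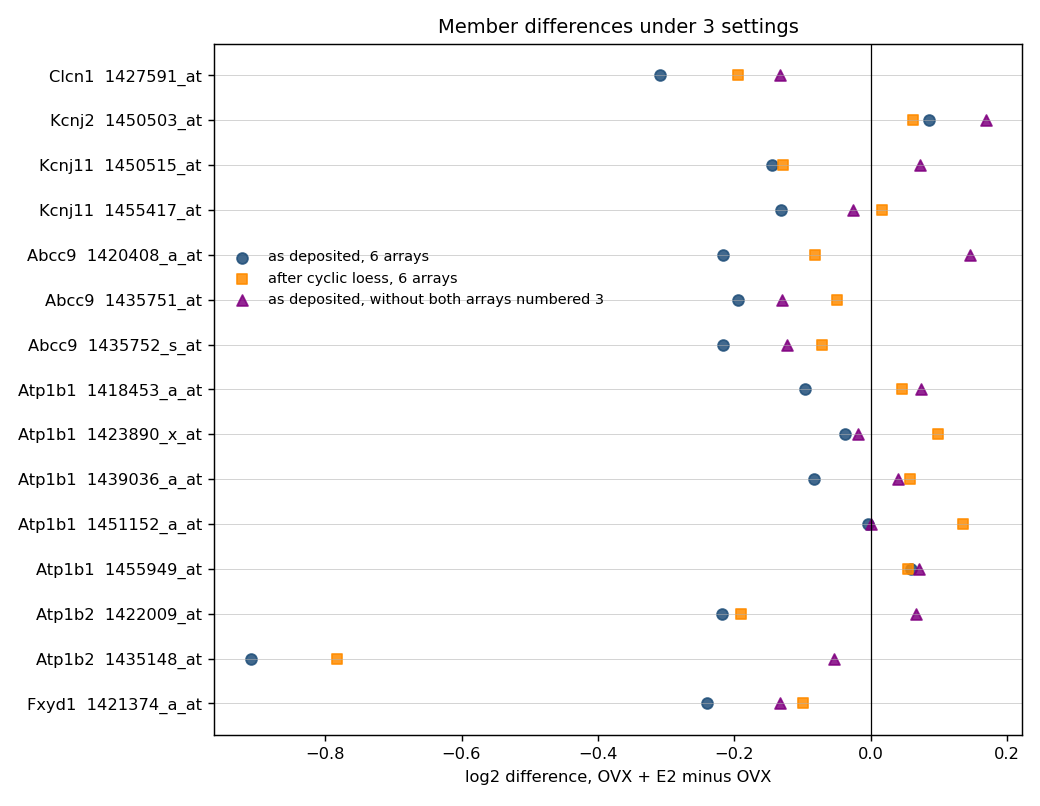
Log2 difference, OVX + E2 minus OVX (horizontal axis), of the 15 member probe sets as deposited (circles), after cyclic loess (squares) and without both arrays numbered 3 (triangles). Clcn1, Fxyd1 and Abcc9 1435751_at and 1435752_s_at stay below 0 in all 3 settings, and Atp1b2 1435148_at goes to −0.053 without the 2 arrays.

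Over the arrays, 9 of 15 member probe sets were highest on OVX replicate 3 and 11 of 15 were lowest on OVX + E2 replicate 3, where 21.5% and 25.6% of all probe sets were. Among the probe sets with a mean above 8 these were 7 and 10 of 11 members, against 41.6% and 48.4%. The 7 on OVX replicate 3 included all 3 probe sets of Abcc9, and 0 of the 5 of Atp1b1 were highest there. With both arrays left out, 7 of the 15 members were below 0 and their median was 0.0012, against 50.8% and −0.0017 for all probe sets. Of the 11 with a mean above 8, 7 were below 0 in that fit and their median was −0.026, against 83.8% and −0.099 for all bright probe sets.

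The related channel and pump genes were a list of 71, of which 61 had 130 probe sets, and 10 were not analysed here. None passed an unadjusted p of 0.001 in limma, 7 were lower at an unadjusted p below 0.05, against 9.43% of all probe sets, and 8 were higher, against 4.35%. Their median difference was 0.004, and 21 of the 130 had a mean above 8.

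Among the partners of the sodium pump, 12 probe sets of 9 genes, none was past 0.05. Fxyd6, another FXYD protein, measured 9.75 ± 0.40 in OVX + E2 and 10.2 ± 0.14 in OVX (SD, n = 3 each), with a difference of −0.43 (limma adjusted p = 0.366) and overlapping groups. Atp1b3, the third beta subunit, differed by −0.12 (limma adjusted p = 0.407). Of the catalytic alpha subunits only Atp1a4, known from sperm, was analysed here.

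Clcn3, an intracellular chloride-proton exchanger of the ClC family, stood nearest to the threshold. Probe set 1438366_x_at measured 8.86, 8.85 and 8.65 in OVX + E2 and 9.14, 9.09 and 9.10 in OVX, without overlap. It and 2 more Clcn3 probe sets had differences of −0.32, −0.35 and −0.33 (limma adjusted p = 0.308 each), and the median of probe sets of like brightness was −0.12. The other Clcn3 probe sets were dimmer and overlapped between the groups, 1433487_at with a difference of −0.22 (standard error 0.12) and 1441248_at with −0.095 (standard error 0.056). Clcn5, another exchanger of the family, had 1 probe set that was higher at an unadjusted p below 0.05 (1441831_x_at, difference 0.09, limma adjusted p = 0.357). Its probe sets 1450787_at, 1420295_x_at and 1429400_at were not past 0.05, with differences of 0.085, 0.051 and −0.024. Of the 17 chloride channel probe sets 3 were lower at that p, against 9.43% of all probe sets, and 1 was higher, against 4.35%. Without overlap, 4 were lower, against 11.4%, and 4 higher, against 9.76%.

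The inward rectifiers were dimmer, with 1 of 30 probe sets above a mean of 8. Of all probe sets with a mean between 6 and 7, 34.1% were below 0 and the median difference was 0.024. Between 7 and 8 these were 58.5% and −0.019. Of the inward rectifiers and sulfonylurea receptors (30 probe sets) 5 were higher at an unadjusted limma p below 0.05, against 4.35% of all probe sets. At the same p 1 was lower, against 9.43%. Of these, the smallest p was that of Kcnj9 1450712_at, for a subunit of G protein-gated channels, at 6.31 ± 0.021 in OVX + E2 and 6.15 ± 0.026 in OVX (SD, n = 3 each), below the median of every array. Of the other Kcnj9 probe sets, 1433029_at was higher by 0.12, also past an unadjusted 0.05, and 1426115_a_at and 1428602_at overlapped. Kcnj1 and Kcnj5 were higher by 0.12 and 0.14 in the probe set of each that was past 0.05, and the other probe set of each overlapped. Kcnj6, named after its values were seen, was past 0.05 in 1421581_at, with a difference of 0.11. Its probe sets 1425044_at, 1425707_a_at, 1451868_at and 1450294_a_at were not past 0.05, with differences of 0.085, 0.064, 0.041 and 0.059. Kcnj12, the close relative of Kcnj2, was the lower one (difference −0.15, limma adjusted p = 0.349), and it was named after its value was seen.

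Of the other potassium channels (43 probe sets) 3 were lower at that p, against 9.43% of all probe sets, and 2 higher, against 4.35%. Kcna7, a voltage-gated channel of skeletal and heart muscle, measured 10.43, 10.41 and 10.20 in OVX + E2 and 10.50, 10.68 and 10.68 in OVX (difference −0.27, limma adjusted p = 0.308), without overlap. Kcnq5 was lower in 1457587_at (difference −0.30, limma adjusted p = 0.31), and its probe sets 1427426_at and 1441071_at overlapped, with differences of −0.07 and 0.04. The other lower one was Kcnc1 1456944_at, a voltage-gated channel named after its value was seen, with a difference of −0.45 (limma adjusted p = 0.346). It was lowest on OVX + E2 replicate 3, at 8.03, and highest on OVX replicate 3, at 9.09. The Kcnc1 probe sets 1423559_at, 1443855_at and 1456965_at overlapped between the groups, with differences of −0.18, −0.12 and −0.013. The higher ones were Kcnk5 1450398_at (difference 0.12, limma adjusted p = 0.32) and Kcnq1 1449464_at (difference 0.12, limma adjusted p = 0.344), both without overlap and both dim. Kcnk5 1421852_at overlapped between the groups, with a difference of 0.025. Scn4b, a beta subunit of sodium channels and the one sodium channel probe set of 16 with a mean above 8, measured 11.27, 11.33 and 11.11 in OVX + E2 and 11.30, 11.49 and 11.88 in OVX (difference −0.32, limma adjusted p = 0.369). Of the exchangers and cotransporters, 12 probe sets, Slc8a3, a sodium-calcium exchanger, had the largest difference, −0.44 in 1440962_at (limma adjusted p = 0.419), with overlapping groups and the highest value on OVX replicate 3, at 9.98. Its other probe set, 1450311_at, differed by −0.31 and also overlapped.

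**Figure D5:**
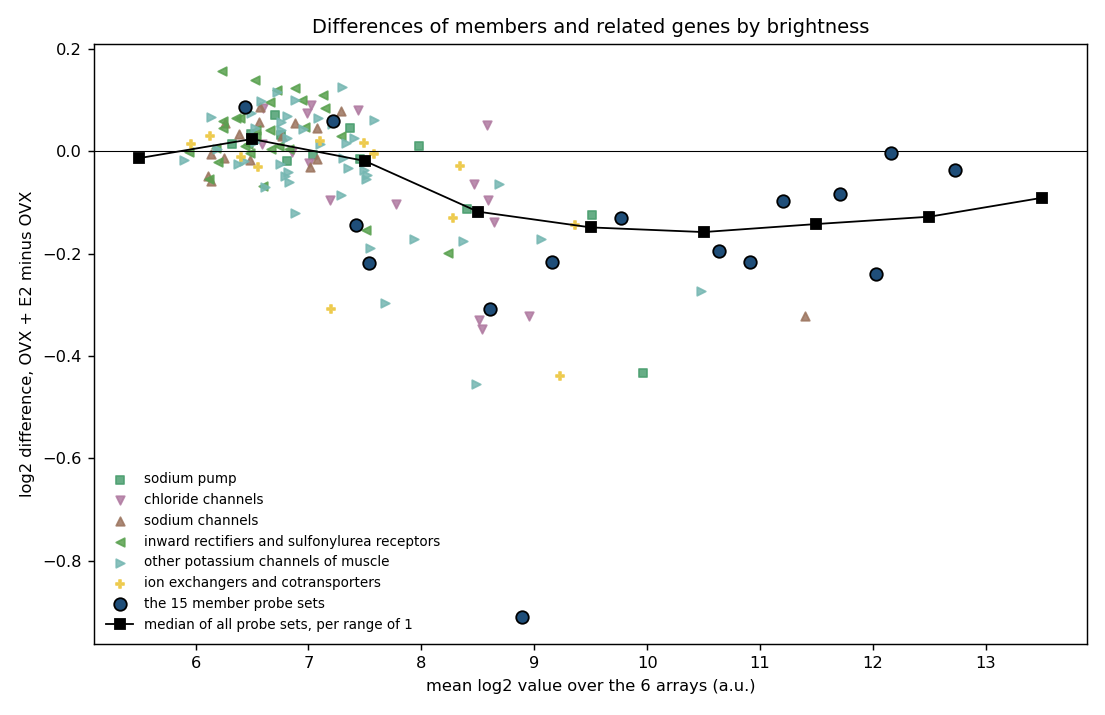
Log2 difference, OVX + E2 minus OVX (vertical axis), against the mean log2 value over the 6 arrays (horizontal axis, arbitrary units) for the 15 member probe sets (blue circles), the 130 probe sets of related genes by class, and the median of all probe sets in ranges of 1 log2 unit (black squares). The medians lie at 0.02 between 6 and 7 and at −0.16 between 10 and 11, and Atp1b2 1435148_at lies farthest from them, at −0.91.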

How the data were processed

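Soleus RNA, by the study's methods, was hybridized to Affymetrix whole-genome mouse expression arrays, 1 array per sample. After background correction of the scans the authors stabilized the variance (VSN) and combined the probes of a set by median polish. The submitters' processing notes name R 2.14.2. The deposited values are log2, in arbitrary units. Probe-level scans and detection calls were not used here. Arrays have no read depth, and their number limits the precision.

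From the deposited log2 values all 45101 probe sets, 64 controls included, entered 1 limma model (version 3.58.1, lmFit then eBayes, under R 4.3.3), with two-sided tests, no covariate and Benjamini-Hochberg adjustment over all of them. The 95% intervals are those of the moderated fit. Of the probe sets 34958 carried 1 gene symbol, 932 several and 9211 none, and only those with 1 were named. All 8 members were named, with the related genes of smallest p (up to 4 a class), the 5 genes of most similar profile for a member probe set ranging over 1 log2 unit or more, and marker genes. Marker lists use the brightest probe set of a gene. Members, lists and rules were chosen with earlier results of these data known. The fit was tested on simulated data. As alternatives, values were median-centred, quantile-normalized or put through 3 iterations of cyclic loess, arrays were weighted or left out, controls or dim probe sets were removed, and the model was given a variance trend or the replicate number as a block. The sequences are those of RefSeq on GRCm38.p6.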

Additional observations from a re-analysis of the deposited data

How the results depend on the processing

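No member probe set reached an unadjusted p of 0.001 under any alternative run. The count of all probe sets past it, 96 as deposited, became 31 (9 lower) under quantile normalization, 31 (14 lower) under cyclic loess, 164 (162 lower) with median centring, 30 with probe sets brighter than the median only, 39 with an intensity trend of the variance, 37 without both arrays numbered 3, and 19 to 76 with 1 array left out, lowest without OVX + E2 replicate 3. The 4 member probe sets below 0.05 were 0 after quantile normalization, 0 after cyclic loess, 1 without both arrays numbered 3, and 3 to 5 with 1 array left out (Clcn1 lost without OVX + E2 replicate 3, Atp1b1 1418453_a_at gained without OVX + E2 replicate 2 and Atp1b2 1435148_at gained without OVX replicate 1). The 15 related probe sets below 0.05 were 7 with probe sets brighter than the median only and 10 to 20 otherwise. Over all refits of single member probe sets the log2 difference changed sign in 24 and kept it, within its side of the threshold, in 200. After quantile normalization it was 0.068 for Atp1b1 1418453_a_at, 0.085 for 1423890_x_at, 0.080 for 1439036_a_at, 0.16 for 1451152_a_at and 0.043 for Kcnj11 1455417_at. Cyclic loess gave 0.047, 0.10, 0.058, 0.14 and 0.017 in the same order. Without both arrays numbered 3 it was 0.074, 0.041 and 0.0012 for Atp1b1 1418453_a_at, 1439036_a_at and 1451152_a_at, 0.15 for Abcc9 1420408_a_at, 0.066 for Atp1b2 1422009_at and 0.072 for Kcnj11 1450515_at. With 1 array left out it ran from −0.27 to 0.055 for Atp1b1 1418453_a_at, −0.078 to 0.0025 for 1423890_x_at, −0.19 to 0.030 for 1439036_a_at and −0.072 to 0.035 for 1451152_a_at, all above 0 without OVX + E2 replicate 3, and from −0.37 to 0.041 for Atp1b2 1422009_at, above 0 without OVX replicate 3. The causes were not tested. The 3 normalizations start from values already normalized by the authors. The deviations of same-numbered arrays from their group means had correlations of −0.13, −0.20 and −0.34. Those of differently numbered arrays lay between −0.24 and 0.33, so same-numbered arrays were not the more alike. With 3 arrays a group, whose deviations sum to 0, these correlations depend on one another. They do not settle whether the numbers pair the samples. The 2 arrays numbered 3 also lay at opposite ends of the first principal component. With the replicate number as a block the count past 0.001 was 21 and 3 members stayed below 0.05.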
